A study of Mus musculus with 2 samples.

Results

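The transcription factor genes Tbx18, Tshz2, Tshz3, Sox9, Tbx2, Tbx3, Tcf21, Gata6 and Osr1, which are known from the patterning and differentiation of the mesenchyme around the embryonic ureter, were followed in newborn mouse ureters after inhibition of SHH signaling. All array probes annotated to one of these genes were taken, 10 of 39429 probes, and the brightest probe over the 4 channels stood for each gene, which gave 9 of 30011 genes. Ureters of wildtype NMRI pups at postnatal day 0 were explanted onto membranes and cultured for 18 h in serum-containing DMEM/F12 medium with 10 µM cyclopamine, an alkaloid inhibitor of SMO, through which cells transduce SHH, or with DMF (1:1000) as the control. The labels name DMF as the control, whereas the study's methods name ethanol as the solvent of cyclopamine, so whether the control held the same solvent is not settled by the sources used here. Total RNA of pooled ureters was compared on 2 dye-swapped 2-colour Agilent arrays, with female pools as replicate 1 (cyclopamine in red) and male pools as replicate 2 (cyclopamine in green). Effects of sex, of the dyes and of the replicate cannot be told apart in this design, and each arm of an array was a single pool of several ureters.

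In the embryo the urothelium secretes SHH, which binds PTCH1 on the adjacent mesenchyme, releases SMO and activates GLI factors. The mesenchyme then splits into smooth muscle, an inner lamina propria of fibrocytes and an outer adventitia. TBX18 marks the progenitors of this mesenchyme, TBX2 and TBX3 are T-box repressors within it, TSHZ3, SOX9 and GATA6 are tied to the onset of the smooth muscle program through the coactivator gene Myocd, and TCF21 and OSR1 are factors of early urogenital and stromal mesenchyme.

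Probe sequences were read from the array files for a pair of probes, the Tcf21 probe because that gene had the shortest locus among the 9 and a lower signal on both arrays, and the dimmer Tshz2 probe because Tshz2 was the only one of the 9 genes with a further probe. Each hybridizes to a 60-base stretch of the transcript, and the array annotation (build mm9) places them at chr10:22537563-22537622 (minus strand) and chr2:169711933-169711992 (plus strand) without naming an exon or UTR.
Tcf21 probe: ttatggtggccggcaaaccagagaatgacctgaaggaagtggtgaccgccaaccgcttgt
Tshz2 probe: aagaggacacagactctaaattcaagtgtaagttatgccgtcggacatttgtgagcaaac
Promoter windows of 250 bases before the gene start were taken from RefSeq (GRCm38.p6), whose table held 4 of the 9 genes, namely Tshz2, Tshz3, Tbx18 and Tcf21. The windows of Tshz2, which had a higher signal with cyclopamine on both arrays, and of Tcf21, which had a lower one, are shown with a CCAAT box and a GC box (GGGCGG or its reverse complement) in capitals. They lie at chr2:169632259-169632508 (plus strand) and chr10:22820144-22820393 (minus strand).
Tshz2: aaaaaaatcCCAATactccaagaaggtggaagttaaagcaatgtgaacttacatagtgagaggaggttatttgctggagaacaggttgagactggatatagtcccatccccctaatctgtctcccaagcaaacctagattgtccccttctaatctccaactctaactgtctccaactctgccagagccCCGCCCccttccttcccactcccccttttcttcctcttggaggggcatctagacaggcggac
Tcf21: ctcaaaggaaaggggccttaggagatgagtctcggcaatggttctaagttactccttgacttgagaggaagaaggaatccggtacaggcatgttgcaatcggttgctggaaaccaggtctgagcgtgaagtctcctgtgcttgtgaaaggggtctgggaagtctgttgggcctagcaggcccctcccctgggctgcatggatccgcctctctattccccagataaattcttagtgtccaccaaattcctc
A search of both strands for the GLI motif TGGGTGGTC gave no match in any of these 4 windows, and the motif was present in 0.225% of all 32851 windows of this length. The T-box motif AGGTGTGA, present in 1.12% of all windows, was not found in the 4 windows either. The CCAAT box was found once each in the Tshz2 and Tbx18 windows (33.8% of all windows held it), and the GC box occurred 1 time in Tshz2 and 2 times in Tshz3 (32.7% of all windows). The Tcf21 window held none of the motifs searched. No overlap between motifs was counted, and absence of a match says only that these letters are not in this window.

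The targeted pathway was read first. Gli1, a transcription factor gene induced by SHH, had control and cyclopamine intensities of 7771 and 2182 on replicate 1 and of 1236 and 290 on replicate 2, which averaged to a log2 ratio of -1.96 ± 0.18 (SD, n = 2, adjusted p = 1.76e-08 by limma). Ptch1, the SHH receptor gene and a direct target, fell by 1.31 on the log2 scale (adjusted p = 2.48e-04), and Hhip, which encodes an SHH-binding inhibitor, fell by 1.15 on that scale (adjusted p = 0.00683). Both arrays showed the direction in all 3 genes, although the Hhip log2 ratio was -0.31 on replicate 1 and -1.99 on replicate 2. Between 64.8% and 70.0% of spots per channel were well above background. The 75th percentile of the processed intensity was 3338 and 3348 on replicate 1 and 628 and 627 on replicate 2, so the ratios below were taken within an array. Defining markers of smooth muscle, lamina propria and urothelium were well above background in all 4 channels (7 of 7, 4 of 4 and 8 of 8). Of 6 markers of kidney epithelium and podocytes, 4 were above background in no channel and 1 was well above it in all 4.

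None of the 9 transcription factor genes passed the limma test in either direction (Benjamini-Hochberg adjusted p under 0.05), whereas 0.77% of the 25975 tested probes were called lower and 0.454% higher, or 1.22% in all. At an unadjusted p under 0.05, 1 of 9 genes, Sox9, passed, against 9.39% of all tested probes. None of the 9 genes passed a filter that asks for a control intensity over 100 and a concordant change of 1.5-fold or more on each of the arrays, which 0.63% of 13661 genes passed with lower and 0.212% with higher signal (0.842% in all). Signals of 3 genes (Sox9, Osr1 and Tcf21) were lower on both arrays (27.6% of all probes were), those of 3 genes (Tbx3, Tbx2 and Tshz2) were higher on both (30.5% of all probes), and Tbx18, Tshz3 and Gata6 went in opposite directions (41.9% of all probes). The median log2 ratio of the 9 genes was -0.02, split into 0.26 (replicate 1) and -0.29 (replicate 2), and over all tested probes it was 0.01. All 9 genes were well above background in all 4 channels, with 3 or 4 spots per probe and array. The 95% limma interval lay within 2-fold in both directions for 8 of 9 genes, the exception being Sox9, and for 3 of 9 within 1.5-fold. Its width rests mostly on the variance of all probes and says little of the spread of a single gene. The standard error was 0.226 for Tbx3 and 0.234 for Gata6, although the SD between arrays was 0.01 and 0.63.

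**Figure D1:**
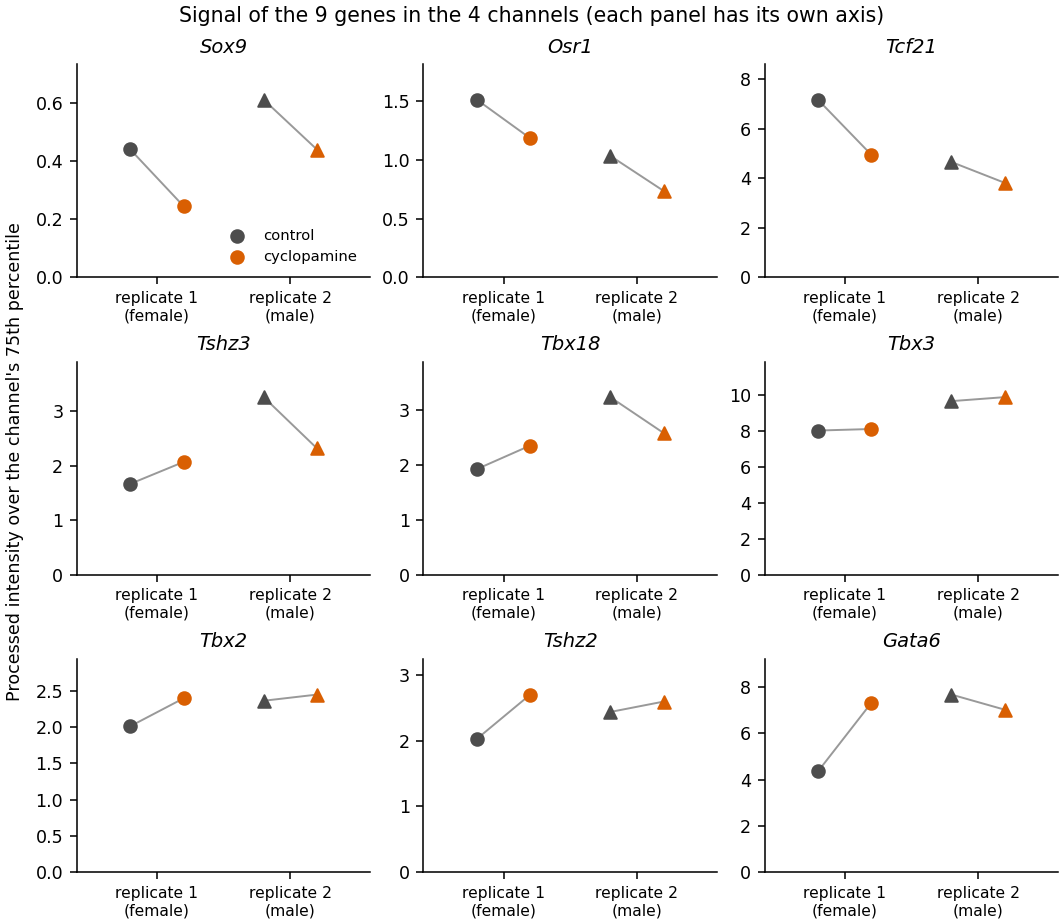
Processed intensity of the brightest probe of each gene divided by the 75th percentile of its channel (vertical axis, no unit), for control (grey) and cyclopamine (orange) on replicate 1 (circles) and replicate 2 (triangles), with a separate axis per gene since probes differ in brightness. Sox9, Osr1 and Tcf21 slope down on both arrays, Tbx3 is nearly level, and Tshz3, Tbx18 and Gata6 slope up on replicate 1 and down on replicate 2.

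TBX18 is the T-box factor that sets the mesenchymal progenitors of the ureter apart from neighbouring stroma. The Tbx18 probe (chr9:87599514-87599573, mm9) read 6403 (control) and 7856 (cyclopamine) on replicate 1. On replicate 2 it read 2025 and 1613. The cyclopamine channel was thus the brighter one with female pools and the dimmer one with male pools. The log2 ratios of 0.30 and -0.33 gave a mean of -0.02 ± 0.44 (SD, n = 2, limma adjusted p = 0.989), and the 95% interval ran from -0.48 to 0.44. The 4 spots of the probe spread by an SD of 0.01 with female and 0.03 with male pools, which covers the spread within a hybridization and not that between pools.

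TBX2 and TBX3 are close relatives that act as repressors and keep mesenchymal progenitors proliferating in several organs. The Tbx3 probe (chr5:120134511-120134570, mm9) read 26763 and 27133 on replicate 1 and 6061 and 6189 on replicate 2, control first. Its log2 ratios of 0.02 and 0.03 lay closer together than those of any other of the 9 genes, with a mean of 0.03 ± 0.01 and a 95% interval from -0.43 to 0.48 (limma adjusted p = 0.984). The interval, which is wider than the array values because limma takes the variance mostly from all probes, holds differences of either sign.
The Tbx2 probe (chr11:85655391-85655450, mm9) read 6717 and 8028 on replicate 1 and 1484 and 1535 on replicate 2. The signal was 120% of control with female pools and 103% with male pools, a mean log2 ratio of 0.15 ± 0.15 (adjusted p = 0.872). Both T-box genes were slightly brighter with cyclopamine on each array, by amounts that did not pass the test.
The array held probes for 14 further T-box genes, of which 8 were tested and 4 were above background in no channel. None of the 8 was called by limma, and 0 had an unadjusted p under 0.05. Mga, which encodes a T-box protein that binds MAX, had a mean log2 ratio of 0.27 (0.54 and 0.00, adjusted p = 0.747). Tbx4, a limb and lung mesenchyme factor, had one of -0.05 (-0.07 and -0.03, adjusted p = 0.963), and Tbx1 and Tbx6 had opposite signs on the arrays. Of 5 genes known to be repressed by T-box factors, 0 were called by limma. At an unadjusted limma p under 0.05 there were 3, against 9.39% of all tested probes. On both arrays 2 were lower and 1 was higher. Their mean log2 ratios ran from -0.74 to 0.54, with a median of -0.06.

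TSHZ3 is a zinc finger factor required for smooth muscle differentiation in the ureter, and TSHZ2 is its relative. The Tshz3 probe (chr7:37557872-37557931, mm9) read 5552 (control) and 6914 (cyclopamine) on replicate 1, but 2041 and 1449 on replicate 2. Cyclopamine signal was therefore 125% of control with female and 71.0% with male pools. The log2 ratios of 0.32 and -0.49 gave a mean of -0.09 ± 0.57 (limma adjusted p = 0.934, 95% interval -0.56 to 0.38).
The brighter Tshz2 probe (chr2:169713711-169713770, mm9) read 6757 and 9032 on replicate 1 and 1528 and 1624 on replicate 2. It was higher with cyclopamine on both arrays, at log2 ratios of 0.42 and 0.09, with a mean of 0.25 ± 0.23 (adjusted p = 0.762). The other Tshz2 probe, whose sequence is given above, read 1958 and 3179 on replicate 1 and 553 and 583 on replicate 2. Its log2 ratios of 0.70 and 0.08 gave a mean of 0.39 (adjusted p = 0.635), so the probes gave the same direction on both arrays and differed most on replicate 1. Tshz1, the remaining teashirt gene, had log2 ratios of 0.76 and -0.22 and a mean of 0.27 (adjusted p = 0.753). All 3 teashirt genes were thus higher with cyclopamine on replicate 1, and 2 of the 3 were lower on replicate 2.

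SOX9 is an HMG-box factor of the condensing ureteric mesenchyme before muscle differentiation and the main factor of cartilage. The Sox9 probe (chr11:112648809-112648868, mm9) read 1473 (control) and 821 (cyclopamine) on replicate 1, and 385 and 276 on replicate 2. On both arrays the cyclopamine channel was the dimmer one, at 55.7% and 71.7% of control. The mean log2 ratio of -0.66 ± 0.26 was the lowest of the 9 genes, and 1.56% of tested probes lay below it. Its 95% interval of -1.12 to -0.21 was the only one of the 9 that did not include 0, but the limma adjusted p was 0.192 (unadjusted 0.00528), so Sox9 was not called. Log2 ratios were -0.84 on replicate 1 and -0.48 on replicate 2, and the latter was short of 1.5-fold.
Sox10, a glial factor gene, had log2 ratios of 0.21 and 0.19 (adjusted p = 0.821), and Sox8, at intensities of 27.1 and 33.5 on replicate 1 and 6.57 and 3.17 on replicate 2, had opposite signs. Of 7 cartilage genes known as SOX9 targets, 5 were tested and 0 were called by limma (1 at an unadjusted p under 0.05), with a median log2 ratio of 0.20, 2 lower and 1 higher on both arrays. The dimmest of the 5, the 1 gene higher on both arrays, had control intensities of 62.2 and 10.4. The gene at the median had 199 and 47.1 and opposite signs on the arrays. The 2 genes lower on both arrays, Sox5 and Col9a1, named here after their values were seen, were brighter. Their control intensities were 16420.5 and 4629 for Sox5 and 5850 and 1073 for Col9a1. Their mean log2 ratios were -0.10 and -0.45, and neither was called. With dim and bright genes that differ in direction, the list is a weak read-out of SOX9.

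GATA6 is a zinc finger factor of visceral and vascular smooth muscle. The Gata6 probe (chr18:11085039-11085097, mm9) read 14535 (control) and 24506 (cyclopamine) on replicate 1, and 4819 and 4401 on replicate 2. Its log2 ratio of 0.75 on replicate 1 was the highest of the 9 genes, while that of -0.13 on replicate 2 had the opposite sign. The mean of 0.31 ± 0.63 had a limma adjusted p of 0.714 and a 95% interval of -0.16 to 0.78. Spots of the probe agreed within each array, with log2 ratios of 0.74 to 0.78 on replicate 1 and -0.15 to -0.12 on replicate 2.
Of 5 other GATA genes 4 were tested and none was called. Gata3, a factor of urothelium and other epithelia, had log2 ratios of 0.42 and 0.15 (mean 0.29, adjusted p = 0.729), and Gata2 had 0.24 and -0.18 (mean 0.03, adjusted p = 0.978). Myocd, the coactivator gene of the smooth muscle program, showed the same order of the arrays as Gata6, Tshz3 and Tbx18. It read 1688 (control) and 2651 (cyclopamine) on replicate 1 and 872 and 707 on replicate 2, at log2 ratios of 0.65 and -0.30 (mean 0.17 ± 0.67, adjusted p = 0.856). Opposite signs on the arrays, in either order and of any size, were found in 41.9% of all probes. Probes higher on replicate 1, lower on replicate 2 and at least 1.5-fold apart, as all of these genes were, made up 7.06%. The shared order does not by itself link these genes, and a link was not tested.

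TCF21 is a basic helix-loop-helix factor of stromal and visceral mesenchyme, and OSR1 is a zinc finger factor of the intermediate mesoderm and early urogenital stroma. The Tcf21 probe read 23932 (control) and 16552 (cyclopamine) on replicate 1, and 2922 and 2388 on replicate 2. The cyclopamine channel was dimmer on both arrays, at 69.2% and 81.7% of control. The mean log2 ratio was -0.41 ± 0.17 (limma adjusted p = 0.597), with a 95% interval of -0.87 to 0.04.
The Osr1 probe (chr12:9587390-9587449, mm9) read 5049 and 3964 on replicate 1 and 649 and 461 on replicate 2. Its log2 ratios of -0.35 and -0.49 gave a mean of -0.42 ± 0.10 (adjusted p = 0.580) and a 95% interval of -0.88 to 0.03. Osr1 was thus lower with both sexes and dye orientations, without passing the test.
The related gene Osr2 was close to control, with a mean log2 ratio of 0.09 (-0.07 and 0.25, adjusted p = 0.931). Of the basic helix-loop-helix genes nearest to Tcf21, all 5 others were tested and none was called. Tcf23 had the lowest mean, -0.76 (adjusted p = 0.122, -0.19 and -1.34), Tcf15 had -0.46 (adjusted p = 0.530) and Msc had 0.52 (adjusted p = 0.416). These genes were dim on replicate 2, with control intensities of 26.0, 73.9 and 7.86, and the Tcf23 spots there had an SD of 0.65. Over all families, 28 relatives of the 9 genes were on the array, 21 were tested and 0 were called by limma. Of the 21, 3 (Tcf23, Tcf15 and Msc) had an unadjusted p under 0.05, against 9.39% of all tested probes.

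**Figure D2:**
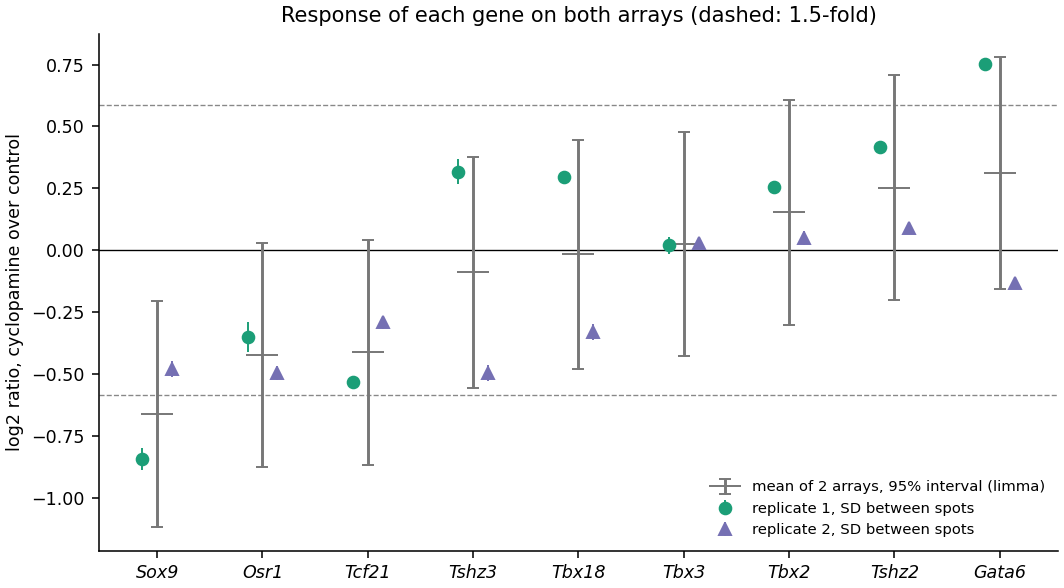
Log2 ratio of cyclopamine over control (vertical axis) for each gene, on replicate 1 (circles) and replicate 2 (triangles) with bars for the SD between spots of the probe, and the mean of both arrays with its 95% limma interval (grey). Only the Sox9 interval lies wholly below 0, and the replicates of Tshz3, Tbx18 and Gata6 lie on opposite sides of 0.

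The 3 genes with opposite signs all had a higher signal with cyclopamine on replicate 1 and a lower one on replicate 2. The arrays differed by 0.62 in Tbx18, 0.81 in Tshz3 and 0.88 in Gata6 on the log2 scale, and 7.06% of all probes were higher on replicate 1, lower on replicate 2 and at least 1.5-fold apart. The arrays as a whole were only weakly alike, with a Pearson correlation of 0.24 across tested probes and log2 ratios whose SD was 0.46 (replicate 1) and 0.30 (replicate 2). In all, 6 of 9 genes were higher with cyclopamine on replicate 1 and 6 of 9 were lower on replicate 2. Because 1 array stood for each sex and dye orientation, the difference between arrays could not be tested.

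**Figure D3:**
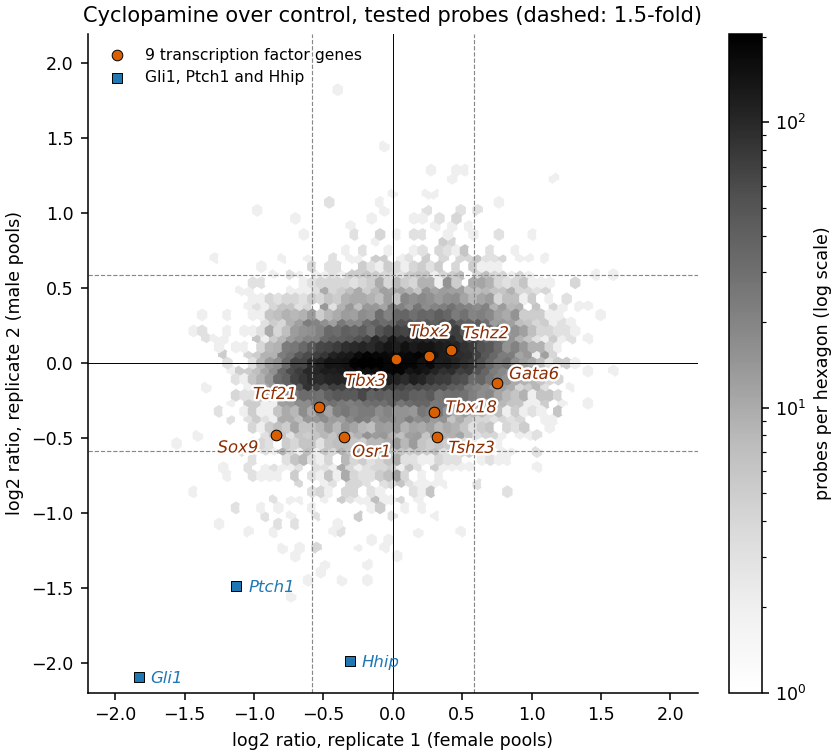
Log2 ratio of cyclopamine over control on replicate 1 (horizontal axis) and replicate 2 (vertical axis) for the tested probes (grey hexagons, shaded by number of probes on a log scale, a few outside the axes not drawn), the 9 transcription factor genes (orange) and the SHH pathway genes Gli1, Ptch1 and Hhip (blue squares). Dashed lines mark 1.5-fold, and none of the 9 genes lies past that line in the same direction on both arrays, while Gli1 and Ptch1 do.

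Gene length moved with the ratios of replicate 1. Over 22468 tested probes with a gene length, the log2 ratio was correlated with the length of the gene on the genome at a Spearman rho of 0.44 on replicate 1 and 0.03 on replicate 2, as a description across genes. The median log2 ratio of replicate 1 went from -0.26 for the shortest of 5 length classes (genes up to 7.50 kb) to 0.31 for the longest. Tcf21 (2.88 kb), Sox9 (5.55 kb) and Osr1 (7.06 kb), the 3 genes that were lower on both arrays, all fell in the shortest class, whereas Tshz3 (75.4 kb) lay just below the longest and Tshz2 (440 kb) within it. Among the 9 genes rho was 0.92 on replicate 1 and 0.32 on replicate 2. After the trend with length was removed from each array, the mean log2 ratio was -0.55 for Sox9, -0.32 for Osr1 and -0.25 for Tcf21, against 0.24 for Gata6, 0.23 for Tbx2 and 0.14 for Tshz2. Sox9, Osr1 and Tcf21 were still lower on both arrays, and the Osr1 values then lay further apart, at -0.16 on replicate 1 and -0.48 on replicate 2. Tbx18 (0.21 and -0.36), Tshz3 (0.08 and -0.51) and Gata6 (0.64 and -0.16) still had opposite signs, and the replicate 1 value of Tshz3 went from 0.32 to 0.08. Myocd (96.4 kb) lay in the longest class, and its replicate 1 value went from 0.65 to 0.38. The part of gene length or RNA quality in these ratios was not tested.

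**Figure D4:**
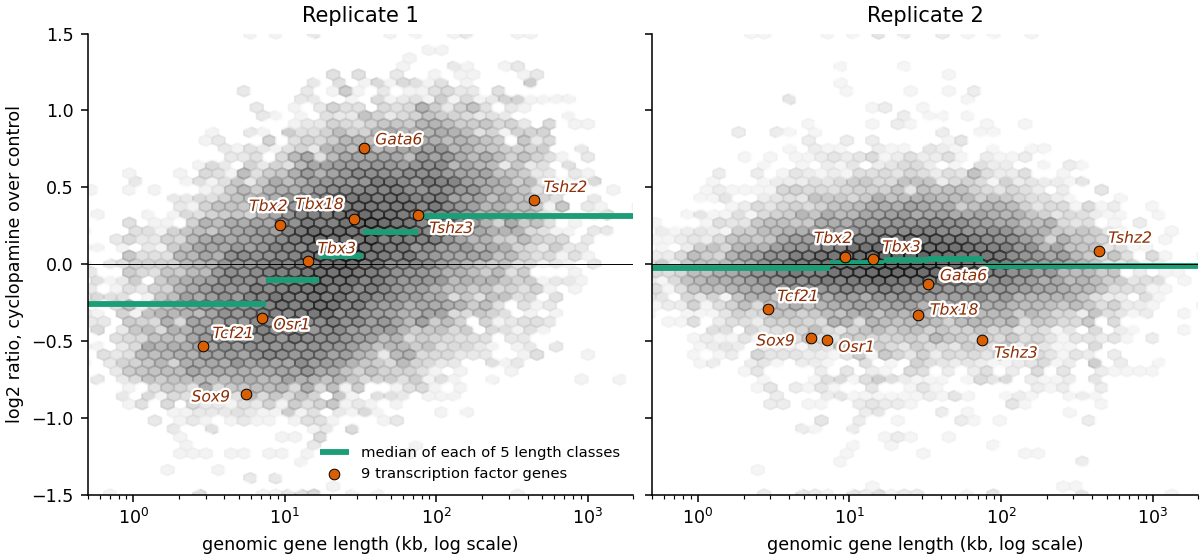
Log2 ratio of cyclopamine over control (vertical axis, values past the axis drawn at its edge) against the genomic length of the gene in kb (horizontal log axis) on replicate 1 (left) and replicate 2 (right), with tested probes as grey hexagons, the median of each of 5 length classes in green and the 9 genes in orange. On replicate 1 the medians climb from -0.26 to 0.31 and the 9 genes are ordered much alike (rho 0.92), and on replicate 2 the medians stay near 0.

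The markers of cell types in the explants are given beside these values, since in whole ureters fewer cells of a type and less RNA per cell cannot be told apart. All 4 lamina propria markers, which the study itself singled out on these arrays and which are therefore no independent evidence of a direction, were lower on both arrays, and their summed intensity was 58.5% of control on replicate 1 and 55.9% on replicate 2. Of these, Car3 was called (mean log2 ratio -0.98, limma adjusted p = 0.0120). Summed smooth muscle markers were at 97.0% and 63.3% of control. Of the 7, 5 were lower on both arrays, as were 27.6% of all probes. None was called, and 3 had an unadjusted limma p under 0.05, against 9.39% of all tested probes. Acta2, named here after its values were seen, had the highest control intensity of the 7 (41995 on replicate 2). Its signal was at 96.2% of control on replicate 1 and 52.9% on replicate 2. Summed endothelial markers were at 160% and 87.5%, the same order of the arrays as in Tbx18, Tshz3 and Gata6, with 3 of 4 in opposite directions. These 4 genes are 42.9 to 136 kb long, and the part of gene length in their ratios was not tested. The 4 adipose markers were lower on both arrays, with a median log2 ratio of -0.79 and Cfd called at -0.96 (adjusted p = 0.0122). Their sum, at 80.2% and 83.1% of control, is carried mostly by Fabp4, named here after its values were seen, which had the highest control intensity of the 4 (44930 on replicate 1) and the log2 ratio nearest to 0, -0.25. In sum, urothelial markers stood at 110% and 107%. Leukocyte markers were at 107% and 92.2%, and glial and neuronal markers at 66.7% and 120%. Kidney epithelium and podocyte markers summed to 182% and 127%, mostly from Wt1, the 1 of 6 that was tested, named here after its values were seen. Wt1 had log2 ratios of 0.88 and 0.52 and was not called (limma adjusted p = 0.145). The sum over the 9 transcription factor genes was 108% and 91.0% of control, and the part of cell composition in their ratios was not tested.

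To place the 9 genes among other regulators of the same mesenchyme, 22 further mesenchymal transcription factor genes were read, of which 21 were tested. Of these, 2 were called lower and 0 higher, against 0.77% and 0.454% of all tested probes. At an unadjusted limma p under 0.05 there were 7, against 9.39% of all tested probes. On both arrays 10 were lower and 3 higher, against 27.6% and 30.5% of all probes. The fold filter was passed by 3 with lower signal, against 0.63% of genes. The median log2 ratio was -0.15, and the list was chosen with earlier results known. Foxl1, a forkhead gene of SHH-responding mesenchyme, fell by 2.61 on the log2 scale (limma adjusted p = 5.40e-12), with control and cyclopamine intensities of 1768 and 371 on replicate 1 and 273 and 35.0 on replicate 2. Foxf1, another forkhead gene of visceral mesenchyme, fell by 0.98 on that scale (adjusted p = 0.0127). Foxd1, a stromal forkhead gene, had a mean log2 ratio of -0.83 at an adjusted p of 0.0502 and passed the fold filter on both arrays, as did Foxl1 and Foxf1. These 3 forkhead genes had been singled out by the study on the same arrays. Of the 4 smooth muscle regulator genes, 0 were called by limma (0 at an unadjusted p under 0.05), 1 was lower on both arrays and 3 had opposite signs. Sox9, at -0.66, had a mean smaller in size than any of these 3 forkhead genes, and the difference between them was not tested.

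**Figure D5:**
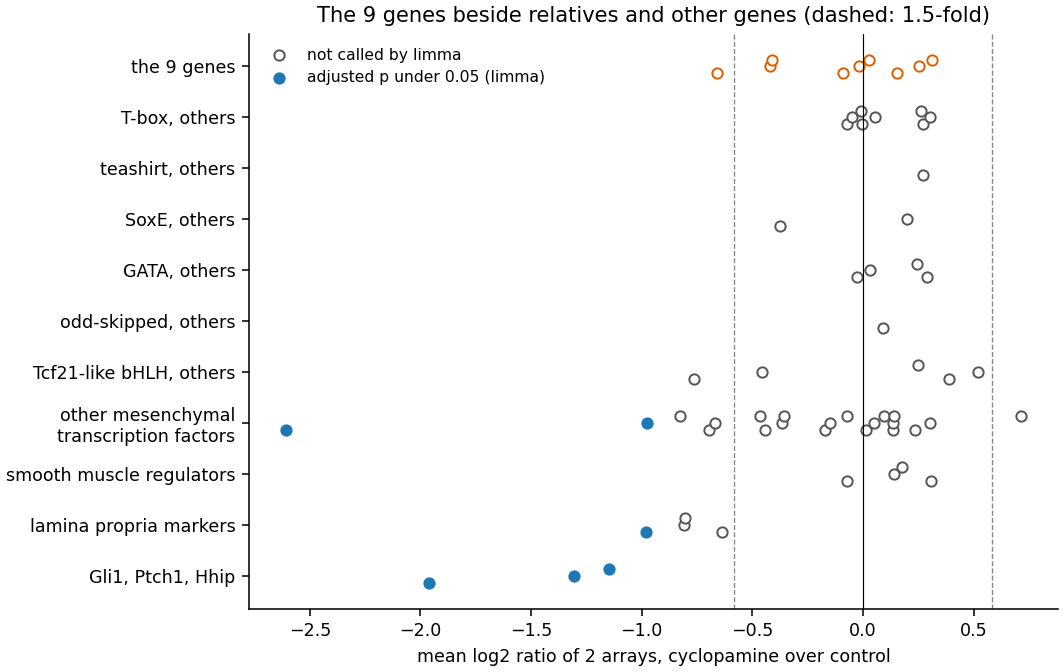
Mean log2 ratio of cyclopamine over control over both arrays (horizontal axis) for the 9 genes, their tested relatives, other mesenchymal transcription factors, smooth muscle regulators, lamina propria markers and the SHH pathway genes (rows, one point per gene), with filled points for genes called by limma and dashed lines at 1.5-fold. The 9 genes and their relatives hold no filled point, and the filled points lie among Gli1, Ptch1 and Hhip, the forkhead genes Foxl1 and Foxf1 and the lamina propria marker Car3.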

How the data were processed

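RNA of wildtype NMRI ureter explants was profiled on 2 dye-swapped arrays. Group, sex and dye of each channel are those of the labels. There, 1 source name reads IWP-2 (a WNT secretion inhibitor) where title and treatment read cyclopamine, which was taken as correct. The arrays shared a slide and a scan. Pools were independent by the study's methods, and whether they came from separate litters is not given in the sources used here.

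The deposited scanner files hold processed intensity values for each spot, background-subtracted and dye-balanced within the array by the authors' Feature Extraction software (version 12.2.0.7 in the headers, 10.7.3.1 in the submitters' processing notes), and its flags for background, saturation and outliers. The authors' deposited series table holds a score for each probe that by its values is a signed fold change of cyclopamine over control, used only as an alternative.

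Control spots were left out, as were flagged outliers (2.89% and 3.15% of spots), no spot was saturated, and spots of a probe were averaged on the log2 scale. Probes were named through RefSeq accessions where these matched (28328 of 39429) and otherwise by the array file. Ratios were turned to cyclopamine over control. With limma 3.58.1 under R 4.3.3 (lmFit, eBayes, dye orientation as +1 and -1, no intercept) 25975 probes were tested, those of which at least 0.5 of the spots were well above background in 1 condition on both arrays. A probe has 1 residual degree of freedom, so its variance comes mostly from all probes together, and precision is limited by having 2 arrays. The fit was tested on simulated data. All 9 genes were named; of other genes, relatives, pathway checks, Myocd and genes called or past the fold filter. The members and lists were chosen with earlier results of these data known. The fold filter follows the study's thresholds, applied here to each array. Alternatives covered the filter, background correction, normalization, length trend, probe choice and leaving out an array. Gene lengths and promoters are from RefSeq (GRCm38.p6), probe positions from the array annotation (mm9). Protein sequences and exon positions of probes were not used here.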

Additional observations from a re-analysis of the deposited data

Results flagged for a closer look

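Tbx18, Tshz3 and Gata6 had log2 ratios of opposite sign in the female pools (replicate 1) and the male pools (replicate 2). Replicate 1 minus replicate 2 was 0.62 for Tbx18, 0.81 for Tshz3 and 0.88 for Gata6. The difference was not tested, since a single array stood for each sex, and sex cannot be told apart from dye orientation.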

How the results depend on the processing

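Under 12 alternatives with a test, all 108 values of single genes kept their side of the threshold, none took the opposite sign, and 0 were called. Alternatives that changed only the filter on dim probes, the variance prior or the fit of the channels left the log2 ratio as it was. Probe choice likewise left it unchanged for the 8 of 9 genes with a single probe, so the sign could not turn in these cases. Sox9 ranged from -0.68 to -0.55, with adjusted p from 0.129 to 0.991, and Tbx3 reached 0.00 in the authors' rounded values. Counting 1.5-fold by the mean log2 ratio put 1 gene (Sox9) past the fold filter as lower. Leaving out an array gave 0 to 1 genes past the filter as lower (Sox9 without replicate 2) and 0 to 1 as higher (Gata6 without replicate 2), and a median log2 ratio of the 9 genes of -0.29 to 0.26. Leaving out an array also turned the sign of Gata6 (-0.13 without replicate 1, 0.75 without replicate 2), Tbx18 (-0.33 and 0.30) and Tshz3 (-0.49 and 0.32) in 1 of the cases. The pairing of pools on an array is part of the ratio. When the 4 channels were fitted as separate samples with no replicate block, 0 of the 9 genes were called lower and 0 higher, and over all probes 0 were called lower and 1 higher (287 and 280 at an unadjusted p under 0.05). The count over all probes, 200 lower and 118 higher, also moved by over 1.5 times with normexp background correction at offset 50 (42 and 12) or 10 (123 and 52) and with the authors' series values (0 and 0, at an unadjusted p under 0.05 818 and 1051). Without the filter on dim probes it was 261 and 216, where the higher count alone moved by that much. The cause of these shifts was not tested. Precision is limited by having 2 arrays, and in the main fit the 95% interval left out 0 for 1 of the 9 genes, Sox9. Which genes had an unadjusted limma p under 0.05 moved with the processing. With normexp at offset 50 these were Sox9 (0.0034), Osr1 (0.032) and Tcf21 (0.049). With the authors' series values Osr1 alone had one (0.026, Sox9 0.066), and with 4 separate channels no gene did (Sox9 0.095).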

Other observations

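Levels of the 9 genes relative to the 75th percentile of their channel were also set across the arrays, where the control was labelled with different dyes. The control level of Tshz3 was 1.96 times as high in male as in female pools, that of Gata6 1.76 times and that of Tbx18 1.68 times. In the cyclopamine channels the same ratios were 1.12, 0.96 and 1.10. Over all tested probes the median of this ratio was 1.03 in the control and 1.02 in the cyclopamine channels, with an SD of 0.56 and 0.42 on the log2 scale. Osr1 (0.68 and 0.62) and Tcf21 (0.65 and 0.77) were lower in male pools in both channels, and Sox9 (1.39 and 1.80) was higher in both. With 1 pool per sex and condition these values have no replicate check, and sex, pool and dye cannot be told apart.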
